A study of Rattus norvegicus with 2 samples.

Results

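Interferon-stimulated genes and genes of antigen presentation were followed in cultured skeletal muscle stem cells (muscle-derived stem cells, MDSC) labelled late diabetes and early diabetes. The genes were chosen by symbol from a list of 43, of which 40 were found in the annotated array table, with 41 probe sets, since Ifit1 had 2. Ifnar2, Eif2ak2 and Nlrc5 were not analysed here. The table held 29214 probe sets in all, of which 20164 named 1 gene, for 18489 genes.

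The late diabetes group and the early diabetes group were 1 Affymetrix Rat Gene 1.0 ST array each, with no replicates. Cells of both groups came from male Zucker obese fa/fa rats, whose leptin receptor is defective and which grow obese and respond poorly to insulin. For both groups the labels give Dulbecco's medium with 20% serum and glucose at 5.6 mM or 22 mM, so which glucose level either array had is not known, and neither are the age of the rats or the number of animals. No lean or non-diabetic rat was analysed here. Values are the deposited normalized intensities on the log2 scale, and a difference is late minus early.

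A single array per group allows no p-value or SD for any gene, and every statement describes these 2 arrays. A probe set was compared when its brighter value reached log2 8.12, the median of all single-gene probe sets. A background level of log2 6.79 was set by the 95th percentile of 1247 olfactory receptor probe sets, assumed silent in these cells. A fold against a value under that background is a lower bound, written "at least". The only repeated measurement was that of 404 genes with 2 compared probe sets of unequal values. Their differences had an SD of 0.22 within a gene, and in 95% of these genes the differences lay within 0.57 of each other. This spread covers probe error and not the variation between cultures or animals.

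Interferons are secreted proteins that warn cells of infection. Type I interferon acts through the receptor chains encoded by Ifnar1 and Ifnar2 and switches on antiviral genes through a complex that holds Stat2 and Irf9 and binds the interferon-stimulated response element. Interferon gamma acts through Ifngr1 and Ifngr2 and on gamma-activated sites in promoters, and one of the first genes it induces is Irf1. Irf1 and Nlrc5 in turn drive genes of MHC class I presentation, in which the immunoproteasome cuts peptides, Tap1 and Tap2 carry them into the endoplasmic reticulum, and tapasin (Tapbp) loads them onto class I chains held by B2m. Muscle cells carry little class I protein at rest and display more of it under interferon.

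Promoter sequences show which of these genes carry the response element near the start site. RefSeq promoters of the rat GRCr8 build, 250 bases before to 50 after the start, were at hand for 31 of the 40 genes, and those of Ciita, Ddx58, Dhx58, Ifit1, Ifit2, Isg15, Mx2, Oas2 and Usp18 were not used here. The motif GAAANNGAAA, read on both strands, was present in 19 of the 31 promoters (61.3%), against 3.92% of 33469 rat promoters. Many of the listed genes are known to be induced by interferon, so that share describes the list. The gamma-activated motif TTCNNNGAA, which reads the same on both strands, was in 10 of the 31 (32.3%) and in 8.87% of all promoters. A match shows only that the letters are present. The sequences below are those of compared genes at least 1.5-fold apart that hold the first motif, with 20 bases on either side and the motif in capitals, 5′ to 3′ on the strand of the gene.
Psmb8, higher in the late array, chr20:4657006-4657055, minus strand: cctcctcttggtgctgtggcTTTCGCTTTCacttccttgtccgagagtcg
Tapbp, higher, chr20:4967868-4967923, minus strand, with 2 overlapping matches: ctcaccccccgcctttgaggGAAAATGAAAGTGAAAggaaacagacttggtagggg
Gbp2, higher, chr2:234005676-234005725, plus strand: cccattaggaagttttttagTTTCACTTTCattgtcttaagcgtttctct
Parp14, higher, chr11:78408038-78408087, plus strand: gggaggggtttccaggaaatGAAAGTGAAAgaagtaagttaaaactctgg
Tap1, higher, chr20:4668635-4668684, minus strand: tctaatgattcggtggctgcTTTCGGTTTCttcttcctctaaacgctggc
Isg20, lower, chr1:142239947-142239996, plus strand: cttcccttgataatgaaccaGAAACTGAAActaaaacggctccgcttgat
Ifih1, lower, chr3:67683998-67684047, minus strand: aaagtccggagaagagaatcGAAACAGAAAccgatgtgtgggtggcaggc
The motif was thus found among genes of either direction. Among compared genes with a promoter at hand, it was in 5 of the 7 whose late value exceeded the early one by 1.5-fold or more, and in 2 of the 5 whose late value was that far under it. The promoters of Oasl, Stat2, Cd74, Psmb9 and Irf1 did not hold these letters. The gamma-activated motif was in 3 of the 7 higher genes (Irf1, Parp14 and Psmb8) and in 0 of the 5 lower ones. These counts leave out Ifit1, Ifit2 and Isg15, which were lower by 1.5-fold or more, and Usp18, which was higher, since their promoters were not used here, so they do not describe either direction as a whole. For Irf1 it began 142 bases before the start site, and it is shown because Irf1 is known as a target of interferon gamma, with the motif in capitals.
Irf1, chr10:38417773-38417821, plus strand: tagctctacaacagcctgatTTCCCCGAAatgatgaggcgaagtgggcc

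The interferon and antigen presentation genes did not differ in 1 direction. Antiviral genes of the Ifit family, Oasl, Isg15 and Isg20 were lower in the late array, while the immunoproteasome genes, Gbp2 and Usp18 were higher. Of 24 compared probe sets, 4 (16.7%) had a late value 2-fold or more above the early one and 5 (20.8%) one 2-fold or more below it, against 5.52% above and 2.94% below among all 10608 compared probe sets. With a limit of 1.5-fold, 8 (33.3%) lay above and 9 (37.5%) below, against 11.6% and 6.11% of all compared probe sets. The genes were chosen with earlier results of these data known, so these shares describe the list and are no test of it. The filter keeps a dim gene only if 1 array raised it over the floor, so such a gene tends to differ. With no filter, 4 of the 41 probe sets lay 2-fold or more above and 6 that far below, against 3.48% and 1.76% of all 20164. The median difference of the 24 was -0.11, beside 0.05 for all compared probe sets. With no filter the order was reversed, with -0.01 for the 41 and -0.04 for all 20164. The differences of the 24 had an SD of 1.35, beside 0.63 for all compared probe sets. Of the 17 probe sets under the floor, 7 lay below background in both arrays. In bulk RNA such as this, fewer cells of a type and less RNA per cell cannot be told apart.

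**Figure D1:**
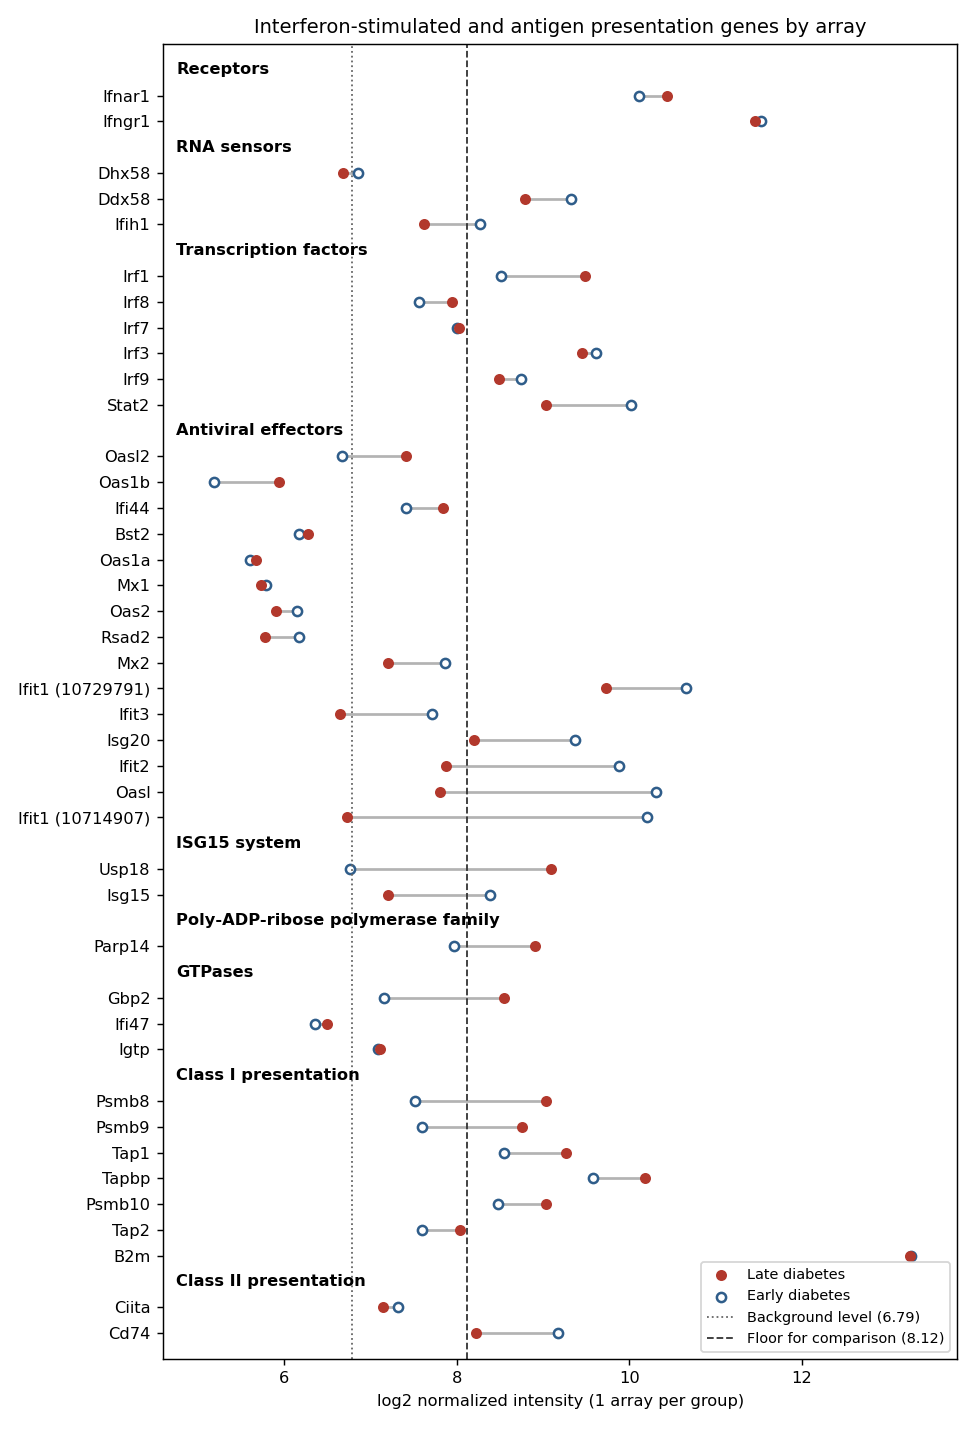
Log2 normalized intensity of the 41 probe sets, grouped by role, with filled points for the late diabetes array and open points for the early diabetes array (1 array each, no error bars). The vertical lines mark the background level (6.79) and the floor for comparison (8.12). Ifit1, Ifit2 and Oasl lie to the left in the late array, and Usp18, Gbp2, Psmb8 and Psmb9 to the right.

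The receptor genes were bright in both arrays. Ifnar1, a chain of the type I interferon receptor, was at 10.44 in the late array and 10.11 in the early array. Ifngr1, the ligand-binding chain of the interferon gamma receptor, was at 11.46 and 11.52 in the same order. Neither differed by 1.5-fold.

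The sensors of viral RNA were lower or dim in the late array. Ifih1, which encodes MDA5, a sensor of long double-stranded RNA, was at 7.63 in the late and 8.27 in the early array (1.56-fold lower). Ddx58, listed in the RefSeq table under the symbol Rig1, encodes the sensor RIG-I and was at 8.79 in the late and 9.32 in the early array, 1.44-fold lower. The differences of Ifih1 (-0.64) and Ddx58 (-0.53) were both close in size to the 0.57 within which 95% of probe set pairs agreed. That limit is the gap between 2 differences of a gene and covers probe error only. Dhx58, which encodes the related regulator LGP2, was close to background with 6.68 in the late and 6.86 in the early array.

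Among the transcription factors, Irf1 and Stat2 stood at opposite ends. Irf1 was at 9.49 in the late array and 8.51 in the early array, which is 1.96-fold higher. Stat2, a factor of the type I response, was at 9.03 in the late and 10.02 in the early array, 1.99-fold lower. Of the 10608 compared probe sets, 317 had a more negative difference than Stat2, and 607 had a more positive one than Irf1. Irf9, which binds DNA together with Stat2, was at 8.49 in the late and 8.74 in the early array. Irf3, which is activated by RNA and DNA sensors and drives the interferon beta gene, was at 9.45 and 9.61 in the same order, so Irf9 and Irf3 lay within 1.5-fold. Irf7, a factor that amplifies type I interferon production, was at 8.03 in the late and 8.0 in the early array, under the floor. Irf8, a factor of myeloid cells that interferon gamma also induces, was at 7.95 in the late and 7.57 in the early array and was not compared either.

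The 2 differences farthest from 0 were those of antiviral genes, Ifit1 and Oasl. The Ifit genes encode proteins that bind foreign RNA and limit its translation, and each of their 4 probe sets read less in the late array. Probe set 10714907 of Ifit1 was at 6.74 in the late array, below background, and at 10.20 in the early array, which is at least 10.6-fold lower. Of all 10608 compared probe sets, 14 had a more negative difference. The other Ifit1 probe set, 10729791, was at 9.73 in the late and 10.66 in the early array (1.91-fold lower). The 2 probe sets therefore gave differences of -3.46 and -0.93, and of the 404 genes with 2 compared probe sets 1 had a wider gap. In RefSeq the similar gene Ifit1bl lies beside Ifit1, and which transcripts each probe set reads was not tested, so the size of the Ifit1 difference is uncertain. Ifit2 was at 7.88 in the late and 9.88 in the early array (4.0-fold lower). Ifit3 was under the floor, with 6.64 in the late and 7.72 in the early array, at least 1.90-fold lower.

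Oasl, of the oligoadenylate synthetase family, had the second most negative difference of the set. It was at 7.81 in the late array and 10.30 in the early array, 5.65-fold lower, and 35 compared probe sets had a more negative difference. Its RefSeq neighbour Oasl2 had the opposite sign at a dim level, with 7.42 in the late array and 6.67, below background, in the early array (at least 1.54-fold higher). The synthetase genes Oas1a, Oas1b and Oas2, whose products make the messenger that activates RNase L, lay below background in both arrays, between 5.67 and 5.94 in the late array and between 5.19 and 6.15 in the early array. Oas1a and Oas1b belong to a family of closely similar copies whose probe sets can share signal.

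Isg20, an exonuclease that degrades single-stranded RNA, was at 8.20 in the late and 9.37 in the early array (2.25-fold lower). Several classical markers of a type I interferon response were not expressed at a level this array could tell from background. Mx1, a GTPase that blocks incoming viral nucleocapsids, was at 5.73 in the late and 5.79 in the early array. Rsad2, which encodes viperin, was at 5.77 and 6.18, and Bst2, which encodes the virion tether tetherin, at 6.28 and 6.17, with the late value first. Mx2 was above background in both arrays but under the floor, at 7.20 in the late and 7.87 in the early array, and so was Ifi44, at 7.84 in the late and 7.41 in the early array.

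The ISG15 genes had opposite signs. Isg15 encodes a ubiquitin-like protein that is attached to other proteins after interferon, and it was at 7.21 in the late array and 8.38 in the early array (2.26-fold lower). Usp18 encodes the protease that removes ISG15 and that also damps signalling at the type I receptor. It was at 9.10 in the late array and 6.77, just below background, in the early array, at least 4.95-fold higher. This was the most positive difference of the set, and 78 compared probe sets had a more positive one. Parp14, an ADP-ribosyltransferase that interferon induces, was at 8.91 in the late and 7.96 in the early array (1.92-fold higher).

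Interferon-induced GTPases act against microbes inside vacuoles, and of Gbp2, Igtp and Ifi47, Gbp2 was bright enough to compare. It was at 8.54 in the late array and 7.16 in the early array, 2.62-fold higher. The immunity-related GTPase genes Igtp (7.11 late, 7.09 early) and Ifi47 (6.50 late, 6.36 early) were dim, and Ifi47 lay below background in both. Irgm, another gene of that GTPase group, taken from the list of other interferon-induced genes and named after its values were seen, was at 9.14 in the late and 9.08 in the early array.

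The genes of class I presentation had higher values in the late array, with B2m as the exception. Of 7 genes, 6 were compared, with a median difference of 0.66, beside 0.05 for all compared probe sets. Of these 6, 2 exceeded 2-fold and 4 exceeded 1.5-fold, all upward. Among all compared probe sets, 5.52% were that far above at 2-fold and 11.6% at 1.5-fold. The 2 genes past 2-fold, Psmb8 and Psmb9, reached the floor in the late array only, so the filter kept them through their higher value. Psmb8 was at 9.04 in the late and 7.51 in the early array (2.87-fold higher), and Psmb9 at 8.75 in the late and 7.59 in the early array (2.23-fold higher). Psmb10 was at 9.04 in the late and 8.48 in the early array (1.47-fold higher). These genes encode the catalytic subunits that turn a standard proteasome into an immunoproteasome. Tap1 was at 9.27 in the late and 8.55 in the early array (1.65-fold higher), and its partner Tap2, just under the floor, at 8.04 in the late and 7.60 in the early array. Tapbp was at 10.18 in the late and 9.58 in the early array (1.52-fold higher). The differences of Psmb10 (0.55) and Tapbp (0.60) were close in size to the 0.57 within which 95% of probe set pairs agreed. That of Tap1 was 0.72. B2m, the light chain shared by all class I molecules, was at 13.25 in the late and 13.27 in the early array, and it was bright in both. Its difference of -0.01 was 0.02 under median centring.

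The standard catalytic subunits that the immunoproteasome genes replace were read beside them, as values of the proteasome partner list. Psmb5, the counterpart of Psmb8, was at 12.08 in the late and 12.04 in the early array. The counterpart of Psmb9, Psmb6, differed by -0.04 and -0.05 on its 2 probe sets, and Psmb7, that of Psmb10, by 0.10. None of the 13 compared probe sets of this list was 1.5-fold apart, against 17.7% of all compared probe sets. The differences of the 13 ran between -0.15 and 0.28. The activator genes Psme1 and Psme2, which interferon gamma also induces, were within that range, with differences of 0.16 for Psme1 and of 0.16 and 0.20 for Psme2. The immunoproteasome differences of 0.55 to 1.52 lay above all of these. However, the standard subunit genes were brighter in both arrays, and Psmb8 and Psmb9 reached the floor in the late array only. The comparison is therefore not between genes of like level.

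Tap2, Psmb8, Tap1 and Psmb9 follow one another without another protein-coding gene between them in the RefSeq order of chromosome 20, in the rat MHC. Tap1 and Psmb9 are read in opposite directions from start sites 457 bases apart, and their promoter windows share 44 bases. The response element of Tap1, printed above, lies between these start sites, 121 bases before that of Tap1. Tapbp lies farther along, with 20 genes between it and Psmb9. Of these 20, 13 were compared, with differences between -0.34 and 0.31. Of the 13, 0 were 1.5-fold apart, against 17.7% of all compared probe sets.

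**Figure D2:**
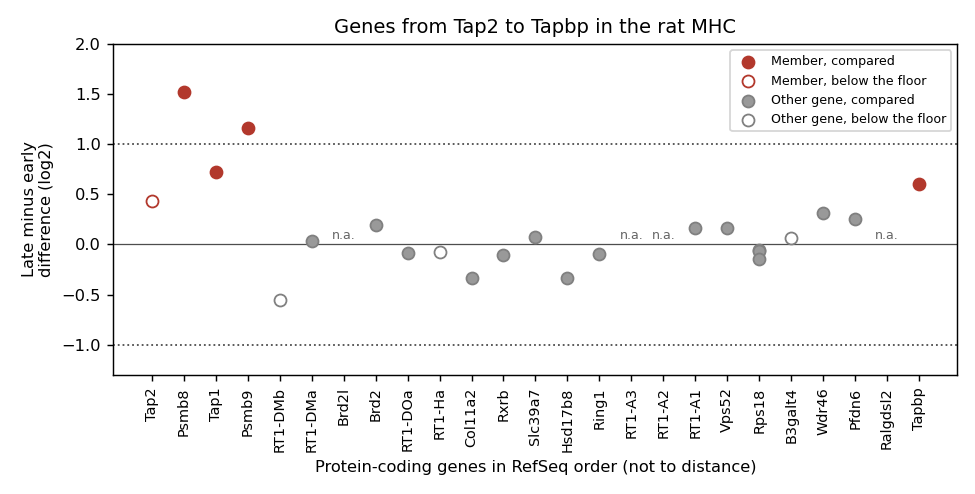
Late minus early difference (log2) of protein-coding genes between Tap2 and Tapbp, in RefSeq order and not to distance, 1 point per probe set and no error bars (1 array per group). Red points are the antigen presentation genes, grey points other genes, open points lie under the floor of 8.12, and n.a. marks genes with no probe set used here. Tap2, Psmb8, Tap1, Psmb9 and Tapbp lie above 0.4, and the genes between them at or below 0.31.

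The class II genes differed in level, and Cd74 and Ciita both had lower values in the late array. Cd74, the invariant chain that guards the class II groove, was at 8.23 in the late and 9.18 in the early array (1.93-fold lower), and 335 compared probe sets had a more negative difference. Ciita, the master activator of class II genes, was at 7.15 in the late and 7.32 in the early array, under the floor. The class II chain genes RT1-Ba (6.74 late, 6.84 early) and RT1-Da (6.58 late, 6.87 early) lay at the background level. RT1-DMa, whose product helps load class II peptides and which was named after its values were seen, was bright, with 10.90 in the late and 10.86 in the early array.

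**Figure D3:**
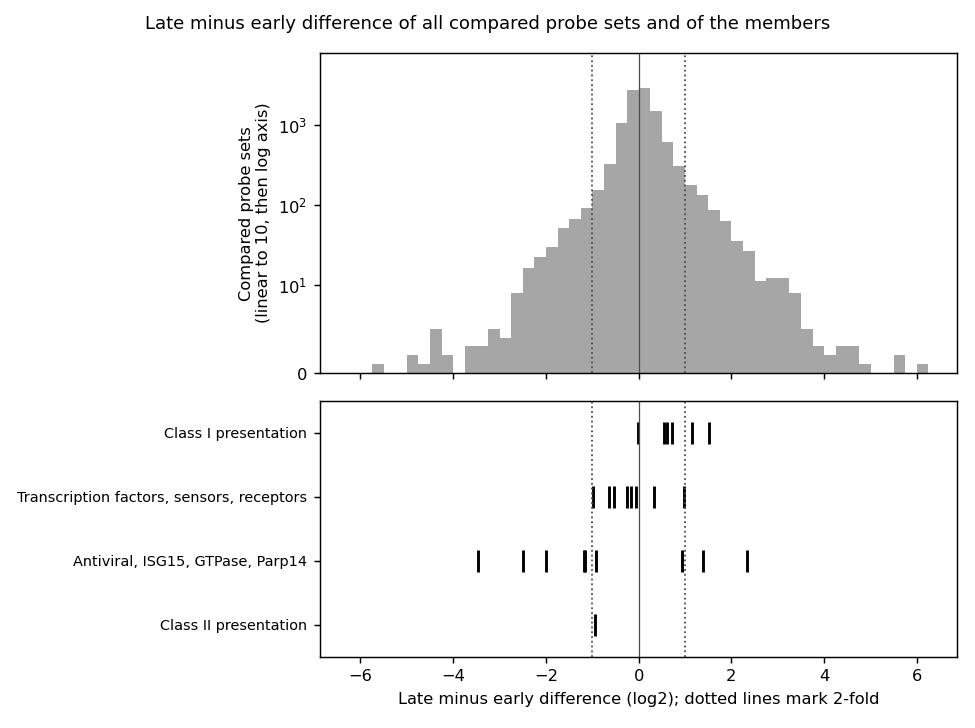
Late minus early difference (log2) of all 10608 compared probe sets as a histogram (upper panel, count axis linear to 10 and logarithmic above) and of the 24 compared interferon and antigen presentation probe sets as ticks by role (lower panel). Dotted lines mark 2-fold. Class I genes lie between -0.01 and 1.52, and the antiviral, ISG15 and GTPase genes between -3.46 and 2.33.

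Other genes of the pathway were read from lists chosen by role. Among all compared probe sets, 17.7% were at least 1.5-fold apart in either direction. Of the interferon genes themselves, Ifnb1 (6.09 late, 6.56 early) and Ifng (5.65 late, 5.80 early) lay below background in both arrays, and the 6 Ifna1 probe sets, which can share signal within a family of near-identical copies, lay between 5.54 and 7.36 in the late and between 5.43 and 7.67 in the early array. The 1 compared ligand probe set, of Il28b, named after its value was seen, differed by -0.35. None of the 15 compared probe sets of receptors and JAK-STAT signalling was 1.5-fold apart, and their median was 0.25. Ifngr2 (difference 0.32), the kinase genes Jak1 (0.35), Jak2 (0.43) and Tyk2 (0.05), and the feedback inhibitor genes Socs1 (0.01) and Socs3 (0.22) were among them. The list of other interferon regulatory factors had 4 compared genes, of which 0 were 1.5-fold apart (median 0.00). They were Irf2 (difference -0.26), Irf5 (0.25), Irf2bp1 (0.39) and Batf3 (-0.25). The last 2 are not interferon regulatory factors themselves and were named after their values were seen. Of 12 compared genes that sense RNA or DNA and signal to interferon (median 0.14), 1 was at least 1.5-fold apart, Traf3, an adaptor on the way to interferon genes (9.20 late, 8.45 early, 1.69-fold higher). The double-stranded RNA receptor gene Tlr3 differed by -0.20, the endotoxin receptor gene Tlr4 by 0.49, the mitochondrial adaptor gene Mavs by -0.43 and the kinase gene Tbk1 by 0.15.

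Of 27 other compared interferon-induced genes, 4 had late values 2-fold or more above early ones and 0 that far below, with a median of 0.05. Among all compared probe sets, 5.52% lay that far above and 2.94% that far below, and the median was also 0.05. Ly6e, a membrane protein gene that affects virus entry, was at 10.54 in the late and 7.36 in the early array (9.04-fold higher). Slfn13, of the Schlafen family, was at 10.50 in the late and 9.0 in the early array (2.83-fold higher). The other 2, named after their values were seen, were Lgals9, which encodes galectin-9 (10.16 late, 8.67 early), and Samd9l, at 11.46 in the late array and 2.74-fold higher there. Ifitm3, which blocks virus entry at endosomes, was at 12.22 in the late and 12.41 in the early array. Of the interferon-induced chemokines, Cxcl10 alone was compared, at 9.30 in the late and 11.62 in the early array (4.99-fold lower), while Cxcl9 and Cxcl11 lay below background in both.

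The 21 compared genes of MHC class I chains and loading had a median of 0.11. Of them, 2 lay 2-fold or more above and 0 that far below, against 5.52% and 2.94% of all compared probe sets. These 2 were RT1-N3, a non-classical class I gene (9.59 late, 8.33 early, 2.40-fold higher), and Tapbpl, a relative of tapasin that edits peptides (9.68 late, 8.59 early, 2.13-fold higher). Mr1, which presents vitamin metabolites, was at 8.62 in the late and 9.51 in the early array (1.85-fold lower). The classical gene RT1-A1, named after its values were seen, was at 10.32 in the late and 10.16 in the early array, and class I genes of the RT1 family are similar enough for probe sets to share signal. The peptide trimming gene Erap1 (difference 0.11) and the chaperone genes Calr (0.03) and Pdia3 (-0.08) were within 1.5-fold. In the class II chain and loading list, 12 probe sets of 10 genes were compared, with a median of -0.11. Ctsl1, a lysosomal protease gene (13.12 late, 12.33 early), was the 1 at least 1.5-fold higher, against 11.6% of all compared probe sets. The list also holds genes of transcription factors, and its Creb1 probe sets include identical values, so that median does not describe class II chains alone.

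**Figure D4:**
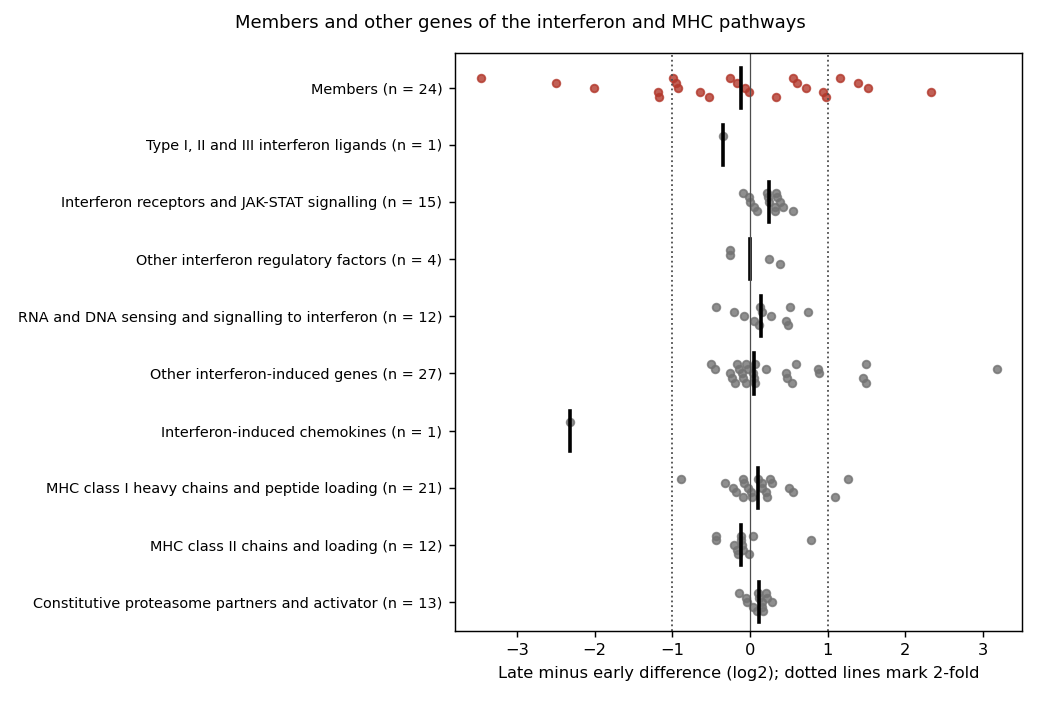
Late minus early difference (log2) of each compared probe set, 1 point each, for the interferon and antigen presentation genes (red) and for the 9 lists of other pathway genes (grey). Black bars are medians and dotted lines mark 2-fold. The 15 receptor and JAK-STAT points lie within 1.5-fold, while the interferon and antigen presentation genes run between -3.46 and 2.33.

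Markers of immune cells, which express many of these genes, were read beside them. Of 33 probe sets for 29 immune marker genes, 9 in the late and 8 in the early array were above background, and 24 were below it in both. Their summed intensity was 4222 in the late and 3355 in the early array. The pan-leukocyte gene Ptprc was at 5.84 in both arrays, and the T cell genes Cd3d, Cd3e and Cd3g lay below background in both. Cd68 (8.12 late, 6.77 early), Itgax (8.04 late, 6.93 early, under the floor) and 1 of the 4 Gzmb probe sets (8.62 late, 6.91 early) had late values 2-fold or more above early ones. These were 3 of the 33 immune probe sets, and 0 lay that far below. With no filter, the shares of all 20164 probe sets were 3.48% above and 1.76% below. Cd14 (9.57 late, 8.81 early) was 1.69-fold higher, and Csf1r (7.91 late, 7.01 early, under the floor) 1.86-fold higher. The median difference of the 33 immune probe sets was -0.04. The part of immune cells in the higher immunoproteasome, Gbp2 and Usp18 values was not tested. Of the genes that define muscle stem cells and myoblasts, Pax7 (7.38 late, 7.35 early) and Myf5 (6.91 late, 7.10 early) were near background and Myod1 (6.65 late, 6.85 early) at it, while Ncam1 was at 12.05 in the late and 11.98 in the early array. Of the 10 genes listed for this cell type, 4 were compared, namely Ncam1, Sdc4 (12.32 late, 11.43 early), Itga7 (8.84 late, 10.37 early) and Des, which encodes desmin (8.28 late, 7.61 early), and the other 6 were under the floor in both arrays. Of 8 fibroblast genes, 6 were compared. Among these, Col1a1 (12.85 late, 13.57 early), Col1a2 (12.58 late, 13.11 early) and Thy1 (13.13 late, 13.44 early) were bright. Col3a1 (10.65 late, 11.73 early) was 2.11-fold lower in the late array. The other compared genes, S100a4 (12.66 late, 12.30 early) and Pdgfra (9.72 late, 9.64 early), had higher late values. Dcn (7.25 late, 6.46 early) was under the floor, and Lum (5.43 late, 4.86 early) lay below background in both arrays.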

How the data were processed

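The authors deposited normalized intensity values on a linear scale, 1 per probe set and array, in 2 tables that held identical values for all 29214 probe sets. How they corrected background, summarised and normalized, and with which software, is not given in the sources used here. Log2 was taken with no pseudocount, and each probe set was kept apart. Of the probe sets, 20164 named 1 gene, 328 several and 8696 none, while 26 had a bare number for a symbol. No test was possible with 1 array per group, so genes are described by values, differences and counts past 1.5-fold and 2-fold. Genes and lists were chosen with earlier results of these data known. All list members could be named. From the pathway lists, preset genes were named, with the 2 highest and 2 lowest compared ones at least 1.5-fold apart. Marker genes and those marked in the text were added. Of the 40 symbols, 39 were current in RefSeq (GRCr8), and no gene coordinates are given beyond its promoter windows. Planted changes were recovered when the calculations were tested on simulated data. Alternatives covered fold, filter, scaling, pseudocount and the joining of probe sets. The tools were pandas 2.3.3, numpy 2.4.6, statsmodels 0.14.6 and matplotlib 3.10.9 under Python 3.11.15.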

Additional observations from a re-analysis of the deposited data

How the results depend on the processing

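No paired analysis was possible because each group had 1 array, so no replicate could be left out either. The 41 probe set differences were recomputed under 6 other scalings, offsets or ways of joining probe sets. Of these 246 values, 243 moved by less than the probe error SD of 0.22, no gene at least 2-fold apart changed direction, and the 3 that moved were those of Ifit1 (-2.20 as the mean of its probe sets, -0.93 by the brighter one). The count of 4 probe sets 2-fold or more above early was 8 at 1.5-fold, 1 at 3-fold and 0 of the 8 left by the 75th percentile filter. The shares of all compared probe sets under these settings were 11.6%, 2.28% and 4.89%. The count of 5 at least 2-fold lower was 9 at 1.5-fold, 3 at 3-fold and 2 with the 75th percentile filter. It was 8 after quantile normalization, where Stat2, Cd74 and the second Ifit1 probe set passed 2-fold. The shares of all compared probe sets were 6.11%, 1.25%, 3.19% and 3.22% in the same order. The median of -0.11 was -0.50 with the 75th percentile filter, over 8 probe sets. Other settings gave medians between -0.18 and -0.01. With no filter the median was -0.01, beside -0.04 for all probe sets that name 1 gene. Brightness limits the rest: 17 of 41 probe sets were under the floor, and normalization would hide a change shared by all genes.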

Other observations

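The genes below were named after their values were seen. Some interferon-induced genes under the floor for comparison also had unlike values in the 2 arrays. Where 1 value was below background, the lower bound of the fold was small for some. Herc6, which attaches ISG15 to proteins in mice, was at 5.93 in the late array, below background, and at 7.39 in the early array, at least 1.52-fold lower, the direction of Isg15. Oas1i, of the oligoadenylate synthetase family, was at 7.97 in the late and 6.26 in the early array, at least 2.27-fold higher, and its probe set may share signal with other copies of the family. Ifi204, of a family of DNA-binding interferon-induced genes, was at 7.95 in the late and 6.92 in the early array, 2.04-fold higher. Casp1, which encodes the protease that activates interleukin-1 beta, was at 7.19 in the late array and 5.74, below background, in the early array, at least 1.32-fold higher. Among compared genes, Ube2l6, the enzyme that carries ISG15 to its targets, was at 9.02 in the late and 8.14 in the early array (1.84-fold higher), while Isg15 itself was lower. Pnpt1, an RNA-degrading enzyme of mitochondria, was 1.85-fold higher.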
